A study of Mus musculus with 6 samples.

Results

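The insulin-like growth factor (IGF) genes described here are 10 named genes of 29385 in the deposited tables: the growth factors Igf1 and Igf2, the long noncoding RNA H19, the receptors Igf1r and Igf2r, and the binding proteins Igfbp3 to Igfbp7. They were chosen by name, with earlier results of these data known. All 10 were found by symbol, and all 10 passed the filter on low values that left 16804 genes to test. RNA came from 6 mouse hearts, 2 in each of 3 groups, taken 12 months after an administration to newborns. The groups were Myh6 RH/+ given vehicle, Myh6 RH/RQ given vehicle, and Myh6 RH/RQ given AAV-hpCas13d, in which an adeno-associated virus delivers hpCas13d, named after the RNA-cutting enzyme Cas13d. Myh6 encodes the alpha myosin heavy chain of the adult mouse heart, and the labels name its alleles RH and RQ without spelling them out. All 6 hearts carried the RH allele, so no group was free of an altered Myh6 allele, and the control for the virus was vehicle. The promoter that drives hpCas13d is not given in the sources used here. Nor do they say that hearts of 1 group were separate animals, and the p-values cover the spread among these libraries, which may be technical.

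IGF1 and IGF2 are secreted peptides that promote growth and survival through the tyrosine kinase receptor IGF1R, while IGF2R binds IGF2 and carries it to the lysosome. Most IGF outside cells is held by binding proteins, which proteases such as PAPP-A cleave to set the peptide free. In mice Igf2 and H19 are neighbouring imprinted genes with shared enhancers, active in the fetus and strongly reduced after birth. IGF1 made in the heart and IGF1 from the circulation are both known to act on cardiac muscle.

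Sequences are shown for the promoters of Igfbp3 and Igfbp4 and for the microRNAs hosted by H19 and Igf2. Igfbp3 and Igfbp4 were called in different sets of comparisons, and they are the members whose RefSeq promoters hold the letters TATANA within the last 40 bases before the start. Promoters were found for 9 of the 10 members, and 3.79% of 32851 RefSeq promoters hold TATANA in that window on the gene's strand. The 250 bases before the RefSeq start (GRCm38.p6) are given 5′ to 3′ on the gene's strand, with TATANA in capitals. The Igfbp3 stretch is chr11:7213924-7214173 (minus strand) and the Igfbp4 stretch is chr11:99040994-99041243 (plus strand).
Igfbp3: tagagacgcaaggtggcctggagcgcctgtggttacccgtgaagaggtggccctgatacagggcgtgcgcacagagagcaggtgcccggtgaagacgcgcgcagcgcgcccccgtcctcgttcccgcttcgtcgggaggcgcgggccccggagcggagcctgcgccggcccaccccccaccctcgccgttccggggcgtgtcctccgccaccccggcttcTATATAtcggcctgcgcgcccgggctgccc
Igfbp4: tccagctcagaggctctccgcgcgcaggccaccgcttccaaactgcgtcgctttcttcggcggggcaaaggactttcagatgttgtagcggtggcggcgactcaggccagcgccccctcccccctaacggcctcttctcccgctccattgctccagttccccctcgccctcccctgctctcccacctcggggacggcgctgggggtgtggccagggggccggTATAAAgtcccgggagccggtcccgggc
The first letter of TATANA lies 30 bases before the start in Igfbp3 and 28 in Igfbp4. Their G and C content is 73.2% and 69.2%. Neither stretch holds GGGCGG on either strand, which 32.7% of the promoters hold. These letter matches describe the windows and nothing was measured at them.

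H19 and Igf2 each host a microRNA gene, and the 4 mature products (RefSeq, GRCm38.p6) are shown with the seed, bases 2 to 8, in capitals, because gene-level values of the hosts do not measure them. Mir675 lies in an exon of H19, and Mir483 lies within Igf2 outside its annotated exons.
mmu-miR-675-5p: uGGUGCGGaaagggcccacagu
mmu-miR-675-3p: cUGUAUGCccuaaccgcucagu
mmu-miR-483-5p: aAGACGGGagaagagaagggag
mmu-miR-483-3p: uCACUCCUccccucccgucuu
The 4 seeds are all different. Neither microRNA gene has an entry in the tables used here.

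Values are CPM, the reads of a gene scaled to a common library total, and library totals ran from 36269261 to 51017058 reads. Genes of the mitochondrial genome took 20.9% and 19.5% of the reads in RH/+ hearts and 21.6% and 22.4% in RH/RQ vehicle. In treated hearts they took 17.2% and 19.9%, and a lower share raises the CPM of other genes. The upper limit for a gene without reads, taken as 3 reads, was between 0.0588 and 0.0827 CPM, which covers counting error only. The hearts showed the ventricular muscle markers at a summed 55091 to 64325 CPM, while of 4 hepatocyte markers Alb and Serpina1a have no entry in the tables. The hepatocyte marker Ttr, at 0.125 to 0.394 CPM in vehicle hearts and 0.882 and 1.21 CPM in treated hearts, rose against both vehicle groups with limma (adjusted p = 0.0403 and 0.0224) but not with edgeR or DESeq2. The labels give no sex. Xist was called lower, and the 4 Y-linked genes Ddx3y, Eif2s3y, Uty and Kdm5d higher, in RH/RQ vehicle hearts than in either other group. The median log2 difference of these 5 genes was 4.56 in RH/RQ vehicle against RH/+ hearts and -4.54 in treated against vehicle RH/RQ hearts. Their part in the results was not tested. Between treated RH/RQ and RH/+ hearts limma, edgeR and DESeq2 each called 0 of these 5, with 0 at an unadjusted p under 0.05. Genotype or treatment cannot be told apart from sex in comparisons with RH/RQ vehicle hearts. Below, a change with treatment means only treated against vehicle RH/RQ hearts. Treated RH/RQ and RH/+ hearts differ in both genotype and treatment, which cannot be told apart in that comparison. In bulk tissue, fewer cells of a type and less RNA per cell cannot be told apart.

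Igf1 was the growth factor that differed between the groups. The RH/+ hearts had 15.1 and 14.7 CPM, the RH/RQ vehicle hearts 33.0 and 38.4 CPM and the treated RH/RQ hearts 20.5 and 20.0 CPM. Both RH/RQ vehicle hearts were above all 4 others, and the treated hearts lay between the other groups without overlap. Xist and the Y-linked genes also split the RH/RQ vehicle hearts from the 4 others, so sex cannot be told apart here. Igf1 (chromosome 10, 87858265 to 87937042, plus strand, GENCODE M21 on GRCm38) rose in RH/RQ vehicle against RH/+ hearts, from 14.9 ± 0.31 to 35.7 ± 3.81 CPM (SD, n = 2 each). The ratio of means was 2.40 and the difference 1.21 on the log2(CPM + 1) scale (SE 0.12; limma adjusted p = 5.07e-07), a call kept under each of the 17 alternative settings.

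In treated RH/RQ hearts Igf1 was lower, at 20.3 ± 0.355 CPM (SD, n = 2), which was 0.568 of the RH/RQ vehicle mean. The log2 difference was -0.78 (SE 0.12; limma adjusted p = 0.000376), called under 16 of the 17 alternatives. Between treated RH/RQ and RH/+ hearts the ratio of means was 1.36 and the log2 difference 0.42 (95% interval 0.18 to 0.67 before adjustment). That difference did not pass (limma adjusted p = 0.0592), although the groups did not overlap. The authors' deposited table gave log2 fold changes of 1.22, -0.88 and 0.34 in the same order, with adjusted p of 6.2e-15, 1.63e-06 and 0.427. Comparisons of these 3 groups share libraries, so they are given side by side and not as independent results.

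Igf2 was near the limit of detection in every heart. Its reads numbered 6 and 13 in RH/+, 7 and 25 in RH/RQ vehicle and 16 and 9 in treated hearts, which is 0.137 to 0.644 CPM. All groups overlapped. No difference was detectable at this depth, and the limma adjusted p was 0.76, 0.964 and 0.833 for RH/RQ vehicle against RH/+, treated against vehicle RH/RQ, and treated against RH/+. In GENCODE M21 Igf2 (chromosome 7, 142650766 to 142666816, minus strand) shares 3596 of its 5723 exon bases with Gm49394 on the same strand. How reads in shared bases were counted is not given in the sources used here, so the level of Igf2 is uncertain to that extent.

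H19 was present at 4.25 and 11.3 CPM in RH/+ hearts, 7.76 and 8.89 CPM in RH/RQ vehicle, and 5.18 and 8.73 CPM in treated hearts. The RH/+ pair spanned all the other values, a ratio of 2.66 between replicates where the median was 1.08 over 10492 genes averaging 5 CPM or more and the 95th percentile 1.27. H19 (chromosome 7, 142575529 to 142578143, minus strand) passed in no comparison, with log2 differences of 0.21, -0.26 and -0.05 (SE 0.26 each; limma adjusted p = 0.752, 0.747 and 0.954). The sign against RH/+ depended on which RH/+ library was kept. RH/RQ vehicle against RH/+ gave 0.83 without RH/+ replicate 2 (limma adjusted p = 0.0341) and -0.40 without RH/+ replicate 1 (0.561), and treated against RH/+ gave 0.56 and -0.67 (0.294 and 0.184). Treated against vehicle RH/RQ was 0.06 without treated replicate 1 and -0.59 without treated replicate 2. The gap from the end of H19 to the start of Igf2 is 72623 bases. Of the 23 genes annotated within 200 kb, the pair included, 6 others were tested, among them Ctsd, Lsp1 and Mrpl23, and limma, edgeR and DESeq2 called 0 in each of the 3 comparisons. In each comparison 1 of the 6 had an unadjusted p under 0.05.

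**Figure D1:**
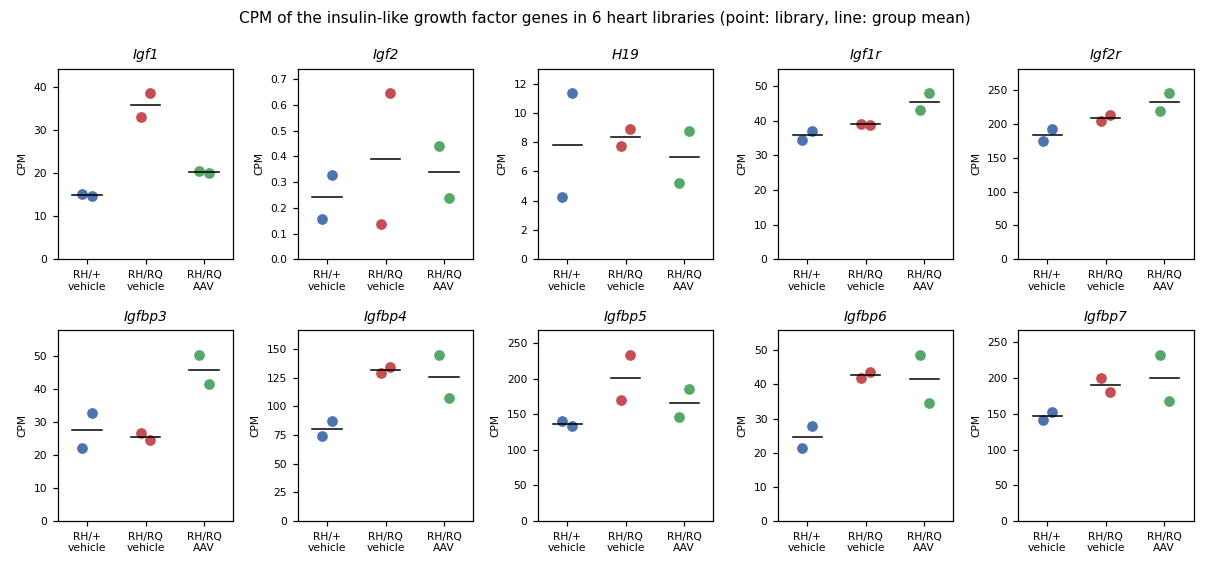
CPM of each of the 10 genes on the y axis (linear, from 0) in the 3 groups of 2 hearts on the x axis, with a point per library and a line at the group mean. Igf1 is at 33.0 and 38.4 CPM in RH/RQ vehicle hearts against at most 20.5 CPM elsewhere, and Igfbp3 is at 50.3 and 41.6 CPM in treated hearts against at most 32.9 CPM elsewhere.

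Both receptors were stepwise higher across the groups, but neither passed the test. Igf1r, the signalling receptor (chromosome 7, 67952827 to 68233668, plus strand), was at 34.4 and 37.0 CPM in RH/+ hearts, 38.9 and 38.8 CPM in RH/RQ vehicle and 43.1 and 47.8 CPM in treated hearts. No group overlapped another. The log2 differences were 0.12, 0.22 and 0.34 (SE 0.10 each) for RH/RQ vehicle against RH/+, treated against vehicle RH/RQ, and treated against RH/+ (limma adjusted p = 0.62, 0.396 and 0.0876). The 95% interval of the last was 0.12 to 0.56 before adjustment.

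Igf2r, the lysosomal targeting receptor (chromosome 17, 12682406 to 12769664, minus strand), was at 174 and 193 CPM in RH/+ hearts, 205 and 214 CPM in RH/RQ vehicle and 219.8 and 245 CPM in treated hearts. Its groups did not overlap either. The log2 difference between treated and RH/+ hearts was 0.34 (SE 0.09; limma adjusted p = 0.0561), and it passed under 3 of the 17 alternatives, among them the fit without treated replicate 1. The other differences were 0.19 and 0.15 (SE 0.09 each; limma adjusted p = 0.311 and 0.561). Per kb of exon, the ratio of Igf2r to Igf1r CPM stayed between 9.14 and 9.94 over the 6 libraries. The antisense gene Airn, at 11.6 to 14.8 CPM, overlaps Igf2r without sharing annotated exon bases, and reads of overlapping genes cannot be separated because no strand setting is stated.

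The binding proteins Igfbp4 and Igfbp6 were both higher in RH/RQ hearts, vehicle or treated, than in RH/+ hearts. Igfbp4, a carrier that PAPP-A cleaves (chromosome 11, 99041244 to 99054392, plus strand), was at 73.9 and 87.5 CPM in RH/+ hearts, 129 and 135 CPM in RH/RQ vehicle and 145 and 107 CPM in treated hearts. Both RH/+ values lay below all 4 RH/RQ values. Igfbp4 rose 1.64-fold in RH/RQ vehicle against RH/+ hearts (log2 difference 0.71, SE 0.12; limma adjusted p = 0.000398) and 1.56-fold in treated against RH/+ hearts (0.63, SE 0.12; limma adjusted p = 0.00248). The treated and vehicle RH/RQ hearts overlapped, with a log2 difference of -0.08 and a 95% interval of -0.32 to 0.16 (limma adjusted p = 0.836).

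Igfbp6, a carrier with a preference for IGF2 (chromosome 15, 102144362 to 102149511, plus strand), was at 21.4 and 27.7 CPM in RH/+ hearts, 41.8 and 43.6 CPM in RH/RQ vehicle and 48.5 and 34.4 CPM in treated hearts. As with Igfbp4, every RH/RQ heart exceeded both RH/+ hearts. It rose 1.74-fold in RH/RQ vehicle (log2 difference 0.79, SE 0.14; limma adjusted p = 0.000828) and 1.69-fold in treated hearts (0.73, SE 0.14; limma adjusted p = 0.00298) against RH/+. Between treated and vehicle RH/RQ hearts the difference was -0.06, with a 95% interval of -0.35 to 0.22 (limma adjusted p = 0.912).

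Igfbp3, the main carrier of IGF in blood (chromosome 11, 7206086 to 7213923, minus strand), was higher in treated hearts than in either vehicle group. RH/+ hearts had 22.2 and 32.9 CPM, RH/RQ vehicle hearts 26.7 and 24.6 CPM and treated hearts 50.3 and 41.6 CPM. The vehicle groups overlapped, and both treated hearts lay above all 4 vehicle hearts. Igfbp3 was 1.79-fold higher in treated than in vehicle RH/RQ hearts (log2 difference 0.81, SE 0.14, limma adjusted p = 0.00159). Against RH/+ it was 1.67-fold higher (0.74, SE 0.14, limma adjusted p = 0.00318). RH/RQ vehicle and RH/+ hearts differed by -0.07 (95% interval -0.37 to 0.22; limma adjusted p = 0.855). The TATATA-bearing promoter printed above is that of Igfbp3. Per kb of exon, the ratio of Igfbp3 to Igf1 was 4.65 and 7.11 in RH/+ and 7.76 and 6.57 in treated hearts. It was lowest in RH/RQ vehicle hearts, at 2.56 and 2.02. The ratios of Igfbp4 (8.78 and 7.85) and Igfbp6 (11.3 and 10.1) to Igf1 were also lowest in that pair, where Igf1 was highest. The low ratio is therefore not particular to Igfbp3.

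The rises of Igfbp3, Igfbp4 and Igfbp6 in treated against RH/+ hearts depended on single libraries. Without RH/+ replicate 1, which had the lower level of all 3 genes in its group, none was called, and the same was true without treated replicate 1, which had the higher level in its group. Without that RH/+ library the log2 differences were 0.46, 0.50 and 0.55 (limma adjusted p = 0.169, 0.0502 and 0.0683, in the order of the gene names). Without that treated library they were 0.60, 0.41 and 0.48 (limma adjusted p = 0.0554, 0.0516 and 0.0765).

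Igfbp5, another carrier cleaved by PAPP-A (chromosome 1, 72857932 to 72874884, minus strand), was at 141 and 134 CPM in RH/+ hearts, 169.7 and 233 CPM in RH/RQ vehicle and 146 and 185 CPM in treated hearts. It rose 1.47-fold in RH/RQ vehicle against RH/+ hearts, with no overlap (log2 difference 0.53, SE 0.12; limma adjusted p = 0.0102). Without RH/RQ vehicle replicate 2, the heart at 233 CPM, the difference was 0.31 and was not called, nor was it with DESeq2 on the reads. The authors' deposited table gave it an adjusted p of 0.339. Treated hearts overlapped RH/RQ vehicle hearts (log2 difference -0.27, SE 0.12; limma adjusted p = 0.352) and did not pass against RH/+ (0.26, SE 0.12; limma adjusted p = 0.321). The first of these ranged from -0.50 to -0.05 with 1 library left out. It passed without RH/RQ vehicle replicate 1 (-0.50; limma adjusted p = 0.0348) and without treated replicate 2 (-0.45; limma adjusted p = 0.0483).

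Igfbp7, a related secreted protein of vessels that binds IGF only weakly (chromosome 5, 77349240 to 77408041, minus strand), was at 141 and 153 CPM in RH/+ hearts, 200.4 and 181 CPM in RH/RQ vehicle and 232 and 169 CPM in treated hearts. The RH/+ hearts were below the other 4. It rose 1.36-fold in treated against RH/+ hearts (log2 difference 0.43, SE 0.12; limma adjusted p = 0.0444). That call was lost under 9 of 17 alternatives, among them edgeR, DESeq2, TMM and RLE factors and leaving out either RH/+ library or treated replicate 1. RH/RQ vehicle against RH/+ gave 0.37 (SE 0.12; limma adjusted p = 0.0656), while the authors' deposited table called it with an adjusted p of 0.00551. For treated against RH/+ hearts the authors' deposited table gave Igfbp7 an adjusted p of 0.217. Treated and vehicle RH/RQ hearts differed by 0.05 (95% interval -0.18 to 0.29).

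**Figure D2:**
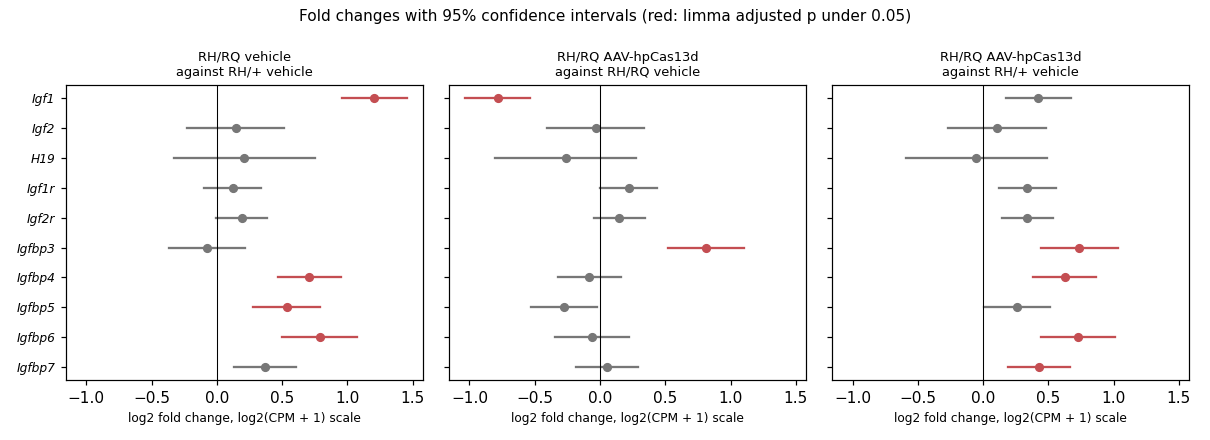
Log2 fold change of each of the 10 genes on the log2(CPM + 1) scale (x axis) in the 3 comparisons, with 95% confidence intervals that are not adjusted for the number of genes, and limma adjusted p under 0.05 in red. Igf1 reaches 1.21 in RH/RQ vehicle against RH/+ hearts and -0.78 in treated against vehicle RH/RQ hearts.

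Counted together, 4 of the 10 genes rose and 0 fell in RH/RQ vehicle against RH/+ hearts, where 3.48% of all tested genes were called higher and 1.51% lower. The 4 were Igf1, Igfbp4, Igfbp5 and Igfbp6. In treated against vehicle RH/RQ hearts Igfbp3 rose and Igf1 fell, against 1.22% of all genes called higher and 0.827% lower. In treated against RH/+ hearts Igfbp3, Igfbp4, Igfbp6 and Igfbp7 rose and 0 fell, with 2.33% of all genes called higher and 0.530% lower. The median log2 difference of the 10 was 0.29, -0.05 and 0.38 in that order, beside 0.04, 0.04 and 0.08 over all genes. On scaling by TMM or RLE factors the median of all genes was within 0.01 of 0 in each comparison. Because the 10 genes were chosen with earlier results of these data known, these counts and shares are a description and not a test.

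Separation of the groups was common among all genes and is to be read against that. The groups did not overlap, with the first higher, for 7 of the 10 genes in RH/RQ vehicle against RH/+ (30.8% of all genes), 3 in treated against vehicle RH/RQ (26.2%) and 8 in treated against RH/+ (35.0%). The first group was lower without overlap for 0, 1 and 0 of the 10, beside 18.5%, 14.4% and 9.66% of all genes.

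Levels of the genes were compared with each other only per kb of exon, averaged over the 6 libraries. Igfbp7 stood apart at 148 CPM per kb (117 to 192 over the libraries). Igfbp6 at 32.6, Igfbp5 at 28.0, Igfbp4 at 25.6 and Igf2r at 22.4 CPM per kb followed, and the ranges of these 4 over the libraries overlapped. Igfbp3 at 10.6 CPM per kb lay below them (7.09 to 16.1). H19 at 3.13, Igf1 at 2.39 and Igf1r at 2.38 CPM per kb overlapped each other, and Igf2 was lowest at 0.0566 CPM per kb. The exon length is that of all annotated exons merged, so genes with many alternative exons such as Igf1 get a lower level per kb.

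**Figure D3:**
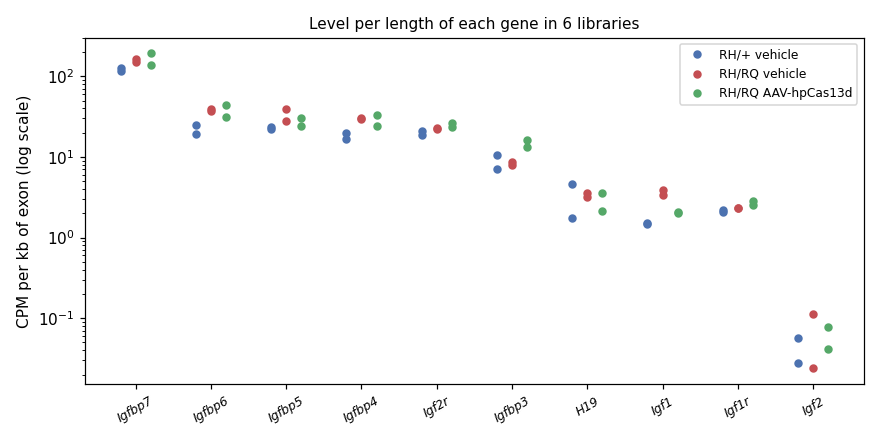
CPM per kb of merged exon (y axis, log scale) for each of the 10 genes (x axis, in order of the mean), with a point per library coloured by group. Igfbp7 is above all others at 117 to 192 CPM per kb, and Igf2 is lowest.

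Among other carriers, proteases and inhibitors of the pathway, Pappa followed the order of groups seen for Igf1. Pappa, the metalloproteinase PAPP-A that cleaves IGFBP4 and IGFBP5, was at 0.761 and 0.777 CPM in RH/+ hearts, 2.39 and 2.84 CPM in RH/RQ vehicle and 1.16 and 1.16 CPM in treated hearts, with no overlap. It rose in RH/RQ vehicle against RH/+ hearts (log2 difference 1.03, SE 0.17; limma adjusted p = 0.000514). It was lower in treated than in vehicle RH/RQ hearts (-0.74, SE 0.17, limma adjusted p = 0.0212). That call was lost when RH/RQ vehicle replicate 2 was left out, or treated replicate 1. At this low level the size depended on the pseudocount, from -0.31 with 5 to -1.10 with 0.1, where the call was lost too (limma adjusted p = 0.0658). Treated against RH/+ hearts gave 0.29 (limma adjusted p = 0.457).

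Of 8 tested genes on that list, 3 rose and 1 fell in RH/RQ vehicle against RH/+ hearts, with a median log2 difference of 0.13. Besides Pappa, Stc1, a secreted inhibitor of PAPP-A, rose from 1.97 and 1.30 to 3.12 and 3.07 CPM (log2 difference 0.65; limma adjusted p = 0.0443), but not with edgeR or DESeq2, nor when RH/+ replicate 2 or one of the RH/RQ vehicle libraries was left out. Adam12, a membrane protease whose human form cleaves IGFBP3 and IGFBP5, rose from 0.42 and 0.401 to 1.92 and 1.13 CPM (0.82; limma adjusted p = 0.00832), a call lost without RH/RQ vehicle replicate 1. Htra1, a secreted serine protease, fell from 82.7 and 86.2 to 64.8 and 61.8 CPM (-0.41; limma adjusted p = 0.00929), and the call was lost without either RH/+ library or RH/RQ vehicle replicate 2.

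In treated against vehicle RH/RQ hearts Pappa was the 1 gene of the 8 called. In treated against RH/+ hearts it was Htra3, a protease of the Htra1 family, which rose from 109 and 122 CPM to 202 and 146 CPM (log2 difference 0.57; limma adjusted p = 0.00539). That call was lost without RH/+ replicate 1 or treated replicate 1. Igfbp2 had 8 reads in all 6 libraries and Pappa2 14, and neither was tested. Igfbp1 has no entry in the tables used here.

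Receptor signalling genes were mostly not called. Of 31 tested genes, which include Insr, Irs1, Akt2 and Mtor, 0 rose and 1 fell in RH/RQ vehicle against RH/+ hearts, 1 rose and 0 fell in treated against vehicle RH/RQ hearts, and 1 rose and 0 fell in treated against RH/+ hearts. At an unadjusted p under 0.05 these comparisons had 10, 5 and 5 of the 31. In the first comparison edgeR called 1 lower and DESeq2 3. Medians of the list were 0.03, 0.06 and 0.10, beside 0.04, 0.04 and 0.08 over all genes.

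Pik3ip1, which inhibits the PI3-kinase downstream of IGF1R, made up the calls in the first 2 comparisons. It was at 41.5 and 46.7 CPM in RH/+ hearts, 32.9 and 33.3 CPM in RH/RQ vehicle and 52.2 and 51.8 CPM in treated hearts. Every RH/RQ vehicle value was below the other 4, where for Igf1 it was above them. The treated hearts were highest for Pik3ip1 but in between for Igf1. Pik3ip1 fell in RH/RQ vehicle against RH/+ hearts (log2 difference -0.40, limma adjusted p = 0.0216), a call lost when any of the 4 libraries was left out. It was higher in treated than in vehicle RH/RQ hearts (0.64, limma adjusted p = 0.000719). Eif4ebp1, the translation repressor controlled by mTOR, rose in treated against RH/+ hearts (0.50; limma adjusted p = 0.0112), but not with edgeR or with TMM or RLE factors, nor without RH/+ replicate 1 or treated replicate 1.

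Of 9 genes of the growth hormone receptor axis, which drives Igf1 in liver, Cish fell and 0 rose in RH/RQ vehicle against RH/+ hearts. Cish, an inhibitor induced by STAT5, went from 42.5 and 43.8 to 33.9 and 31.3 CPM (log2 difference -0.40; limma adjusted p = 0.044), and the call was lost when any of the 4 libraries was left out. In the other 2 comparisons limma, edgeR and DESeq2 called 0 of the 9, with 2 and 0 at an unadjusted p under 0.05. Cish had a log2 difference of 0.38 in treated against vehicle RH/RQ hearts (limma adjusted p = 0.0957), which passed without treated replicate 2 (0.54; limma adjusted p = 0.00873) and with a replicate block (0.38; limma adjusted p = 0.0394). Ghr, the receptor itself, ranged from 129 to 164 CPM.

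Of 23 tested imprinted genes and regulators of fetal Igf2, Slc38a4 rose and Snrpn fell in RH/RQ vehicle against RH/+ hearts and in treated against RH/+ hearts. Between treated and vehicle RH/RQ hearts limma, edgeR and DESeq2 called 0. At an unadjusted p under 0.05 there were 4, 0 and 5 of the 23 in RH/RQ vehicle against RH/+, treated against vehicle RH/RQ, and treated against RH/+ hearts. The median log2 differences of the list were 0.11, 0.04 and 0.09, beside 0.04, 0.04 and 0.08 over all genes. Slc38a4, an amino acid transporter, was at 8.32 and 8.84 CPM in RH/+ hearts, 17.2 and 15.0 CPM in RH/RQ vehicle and 13.6 and 13.6 CPM in treated hearts. Its log2 differences against RH/+ were 0.83 (limma adjusted p = 0.000482) and 0.61 (limma adjusted p = 0.014), the second lost without either RH/+ library or treated replicate 1. Snrpn, a splicing protein gene that shares transcripts with Snurf and whose count is uncertain to that extent, was at 27.3 and 22.5 CPM in RH/+ hearts, above the 14.0 to 15.6 CPM of all RH/RQ hearts. Its log2 differences were -0.78 (limma adjusted p = 0.000483) and -0.66 (limma adjusted p = 0.00436), the second lost without RH/+ replicate 1.

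**Figure D4:**
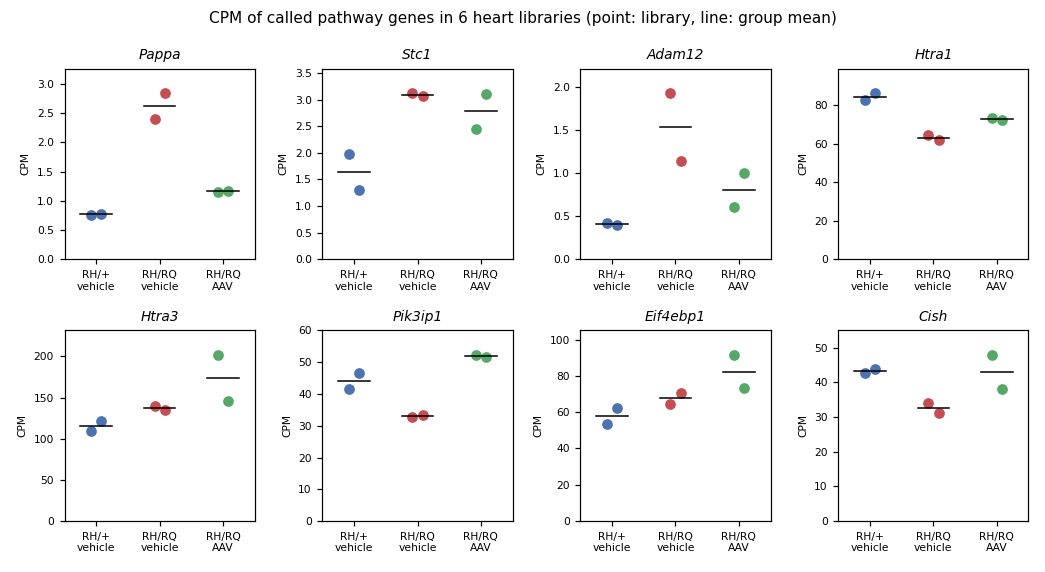
CPM (y axis, linear, from 0) of 8 called pathway genes in the 3 groups of 2 hearts, with a point per library and a line at the group mean. Pappa is highest in RH/RQ vehicle hearts at 2.39 and 2.84 CPM, and Pik3ip1 is lowest there at 32.9 and 33.3 CPM.

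Markers of cells known to make these factors moved with some of the groups. Macrophages and fibroblasts of the mouse heart are known to express Igf1, and fibroblasts several of the binding proteins. Of 10 fibroblast markers 6 rose and 0 fell in RH/RQ vehicle against RH/+ hearts, 0 rose and 2 fell (Col1a1 and Col3a1) with treatment, and 8 rose and 0 fell in treated against RH/+ hearts, where edgeR called 4. The fibroblast sum was 2316 and 2743 CPM in RH/+ hearts, 3406 and 3212 CPM in RH/RQ vehicle and 4020 and 3448 CPM in treated hearts. Both RH/+ sums were below the other 4.

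Macrophage markers summed to 212 and 214 CPM in RH/+ hearts, 289 and 275 CPM in RH/RQ vehicle and 260.1 and 232 CPM in treated hearts. Their group means ran in the order seen for Igf1, as did those of the endothelial and endocardial markers. The share of all genes with this order was not counted. Of 10 macrophage markers 5 rose and 0 fell in RH/RQ vehicle against RH/+ hearts. In the other 2 comparisons limma called 0, with 3 and 4 at an unadjusted p under 0.05, and with treatment edgeR and DESeq2 each called 2 lower. Mesothelial markers summed to 21.1 to 31.6 CPM in the vehicle hearts and 17.7 and 14.9 CPM in the treated hearts. Of 8 endothelial markers limma called 0 in each of the 3 comparisons, with 1, 1 and 0 at an unadjusted p under 0.05, edgeR called 0, and DESeq2 called 1 lower with treatment. Adipocyte markers summed to 0.893 and 7.22 CPM in RH/+ hearts, above the 0.0258 to 0.527 CPM of all RH/RQ hearts, and the 2 that were tested, Plin1 and Cfd, fell in RH/RQ vehicle against RH/+ hearts with limma and edgeR but not with DESeq2. No listed fibroblast or macrophage marker was at or under the limit of 3 reads in all libraries. Of 8 mural markers Acta2 and Abcc9 fell in RH/RQ vehicle against RH/+ hearts, Abcc9 rose with treatment (limma alone, not edgeR or DESeq2), and Acta2 fell in treated against RH/+ hearts. The mural sum was 1368 and 1383 CPM in RH/+ hearts, 1156 and 1117 CPM in RH/RQ vehicle and 1136 and 1273 CPM in treated hearts. Atrial markers summed to 112 to 144 CPM in the vehicle hearts and to 431 and 755 CPM in the treated hearts. Nppa, the atrial natriuretic peptide gene, rose against both vehicle groups (log2 differences 2.30 and 2.17; limma adjusted p = 2.11e-09 and 9.79e-09), and it was the 1 gene called of 3 atrial markers tested. The part of these cells in the IGF results was not tested.

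**Figure D5:**
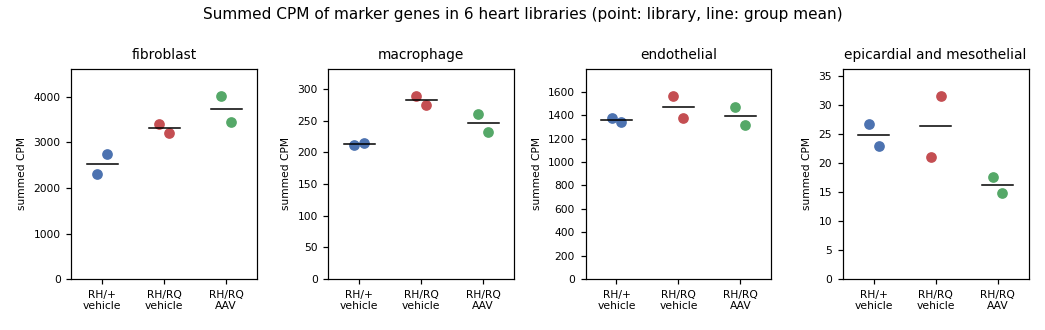
Summed CPM of the marker genes of 4 cell types (y axis, linear, from 0) in the 3 groups of 2 hearts, with a point per library and a line at the group mean. The macrophage sum is highest in RH/RQ vehicle hearts at 289 and 275 CPM, and the fibroblast sum is lowest in RH/+ hearts at 2316 and 2743 CPM.

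The genes whose pattern over the 6 libraries was most like that of each called member are given as a description, with Pearson's r on log2(CPM + 1) and no p, since the libraries fall into 3 groups. For Igf1 they were Hbegf, a growth factor of the EGF family (r = 0.998), Amot, a regulator of cell junctions (r = 0.994), and Rcan1, an inhibitor of calcineurin (r = 0.991). Rcan1 was at 97.4 and 99.5 CPM in RH/+ hearts, 165 and 183 CPM in RH/RQ vehicle and 124 and 129 CPM in treated hearts. Pearson's r takes no account of the size of a change. Hbegf ranged from 14.6 to 20.0 CPM over the 6 libraries and Igf1 from 14.7 to 38.4 CPM.

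Igfbp4 and Igfbp6 were among the 3 genes most like each other (r = 0.998). Both had Kctd17 and Cx3cl1, a chemokine for macrophages, as the others, with r between 0.994 and 0.999. The closest to Igfbp3 was Trpc4ap (r = 0.998), to Igfbp5 Asb18 (r = 0.989) and to Igfbp7 Glmp (r = 0.997). Trpc4ap ranged from 107 to 125 CPM, a smaller relative change than that of Igfbp3, from 22.2 to 50.3 CPM. Other close genes were Lonp1 and Apc2 for Igfbp3, Slc29a3 and Dst for Igfbp5, and Pcnx3 for Igfbp7, with r between 0.982 and 0.995.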

How the data were processed

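Poly(A) RNA was captured from 1 µg of total RNA per heart, per the labels' protocols. HISAT2, HTSeq, DESeq2 and mm10 are named by the submitters' processing notes, with versions, annotation and strand setting not given in the sources used here. The authors deposited 3 full tables of 4 libraries each with CPM per gene. Each deposited CPM was a whole multiple of 1 read (100% of values, tolerance 0.001), so reads were recovered, and repeated columns were identical. The deposited tables also carry per the file headers a mean signal, a log2 fold change and its error, a test score and p-values, of which the fold changes and adjusted p-values are quoted.

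All 6 libraries entered 1 limma (3.58.1) fit of 3 group means with a trend on log2(CPM + 1), which understates changes of low genes. The filter was edgeR's filterByExpr (minimum count 10), and Benjamini-Hochberg adjustment covered all 16804. Calls are two-sided at an adjusted p under 0.05. edgeR 4.0.16 and DESeq2 1.42.0 on recovered reads, scaling, pseudocount, filter, a block and leaving out each library were alternatives. Tested as counts with edgeR, 918, 381 and 411 genes passed in RH/RQ vehicle against RH/+, treated against vehicle RH/RQ, and treated against RH/+ hearts. The fits were tested on simulated data with the same spread setting for every gene and no outlying library, unlike these data.

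Members and lists were chosen with earlier results of these data known. The named genes were the 10 members, the genes called on each list where 5 or fewer were called, and the 3 genes most like each called member among genes averaging 5 CPM or more, predicted genes aside, of which 1 gene is not reported here. Other list members and marker genes named were chosen after their values were seen. Gene positions and exon lengths are from GENCODE M21 (GRCm38), and sequences from RefSeq.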

Additional observations from a re-analysis of the deposited data

How the results depend on the processing

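Results with no filter on low genes lost most calls: the members called went from 4, 2 and 4 to 1, 0 and 0, and all genes called from 838, 344 and 480 to 57, 15 and 7, in RH/RQ vehicle against RH/+, treated against vehicle RH/RQ, and treated against RH/+ hearts. The cause was not tested. Leaving out 1 library at a time gave 3 to 5, 2 to 3 and 0 to 4 members, and 393 to 1195, 155 to 661 and 206 to 744 genes in all. In the last comparison 0 members were called without RH/+ replicate 1 and only Igf2r without treated replicate 1. The first digit of the sample titles was tried as a pairing. Deviations of same-numbered samples correlated at 0.130 (RH/+ with RH/RQ vehicle), -0.0205 (RH/+ with treated) and 0.0742 (RH/RQ vehicle with treated). The labels do not say what the digit marks, and with 2 libraries per group these values cannot settle whether same-numbered samples share an origin. With that replicate block 1173, 567 and 715 genes were called, and Igfbp7 in the first comparison and Igf1 and Igf2r in the last were added, as was Cish (0.38) in treated against vehicle RH/RQ hearts. The share of all calls that were higher moved with scaling, from 69.8%, 59.6% and 81.5% to 56.6%, 46.7% and 59.1% with TMM factors. With CPM over genes outside the mitochondrial genome, Igfbp7 was added in the first comparison and the other member calls stayed. No log2 difference of a member or named list gene turned its direction with a call under any alternative run. With 2 hearts per group, small differences in genes of low depth such as Igf2 cannot be resolved.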
